A study of Mus musculus with 21 samples.

Results

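p53, encoded by Trp53, and 31 of its regulators and transcriptional targets were followed by RNA sequencing in mouse hematopoietic stem cells (HSCs) after treatment with 5-fluorouracil (5-FU), a pyrimidine analog that kills dividing cells. The 32 genes were taken by symbol and grouped by the role for which each is known, and all 32 were among the 21000 genes of the count table. They comprised 4 genes of p53 and its regulators, 5 arrest genes, 13 death and survival genes, 5 repair genes, and 5 metabolic and stress genes. The cells were CD150+CD48− LSK (Lineage− Sca-1+ c-Kit+) cells, and 21 libraries of 3000 to 3500 HSCs each were analysed, 3 in each of 7 groups.

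All treated mice were wild type and 10 weeks old. Mice were given PBS once (PBS-1 d6) or 5-FU at 150 mg/kg once (5FU-1 d6), or PBS or 5-FU 3 times at 21-day intervals (PBS-3 d6 and 5FU-3 d6), and their HSCs were taken at the day labeled 6 after the last administration. For its day 6 experiments the study counts the day of administration as the first day. In 2 further groups, the HSCs were taken at day 21 after 5-FU once (5FU-1 d21) or 3 times (5FU-3 d21). The last group (old fresh) came from untreated mice aged 2 years. No PBS group was taken at day 21, so that for the day 21 groups the time and the treatment cannot be told apart against PBS. At day 6 after 5-FU the sorting gate was widened to cells with dim c-Kit and the Mac-1 antibody was left out of the lineage mixture, so the gate and the treatment changed together. In bulk libraries, a change in the number of cells that express a gene and a change in the RNA per cell cannot be told apart.

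p53 is a transcription factor that is held at low levels by the ubiquitin ligase Mdm2 and its partner Mdm4. DNA damage and ribosomal stress release p53 from this control, largely by changes in the protein rather than in its mRNA, and p53 then raises the transcription of genes that stop the cell cycle, start apoptosis, repair DNA or adjust metabolism. Mdm2 is itself such a target, which closes a negative feedback loop. In HSCs, p53 is known for its part in quiescence and in the response to genotoxic stress, and 5-FU, which depletes cycling progenitors, drives the remaining HSCs into division.

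The upstream sequences that p53 could read were compared among the members. Of the 32 symbols, 24 had a RefSeq start site on GRCm38.p6, and the 250 bases before each start were searched on both strands for the p53 half-site, a motif of 10 letters, and for the 20-base p53 element of 2 adjoining half-sites, in which up to 2 mismatches outside the core C and G were allowed. A half-site lay before a start of 10 of the 24 members (41.7%) and of 8.2% of the 27025 genes of the table. The element lay before a start of 2 members (8.33%), Cdkn1a and Ccng1, and of 0.329% of all genes. Because an element holds half-sites, the motifs overlap, and a match is a description of the letters only. The stretches that hold these 2 elements are shown because both genes encode regulators of the cell cycle, and because their mRNAs differed in opposite directions at day 6 after 5-FU once. Both run 5′ to 3′ on the strand of the gene, the capitals mark the element, and each element carries 1 mismatch. The element begins 51 bases before the upstream one of the 2 Cdkn1a starts listed (chr17:29090878-29090947, plus strand) and 195 bases before the Ccng1 start (chr11:40755412-40755531, minus strand).
Cdkn1a: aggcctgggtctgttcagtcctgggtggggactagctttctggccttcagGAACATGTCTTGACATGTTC
Ccng1: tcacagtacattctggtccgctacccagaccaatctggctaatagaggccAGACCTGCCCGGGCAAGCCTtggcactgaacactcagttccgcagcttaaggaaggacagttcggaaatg
The 250 bases before the other Cdkn1a start (chr17, position 29093769) held neither motif.

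Libraries held between 22184885 and 38649033 counts. A signal of 3 counts, taken as the floor, corresponded to between 0.085 and 0.128 CPM in a library, where CPM is the count of a gene scaled to the normalized size of its library. The HSC label was checked against 12 HSC markers, all of which passed the filter on low counts, and their summed level was 3384 to 3566 CPM in 5FU-1 d6 and 3028 to 3098 CPM in 5FU-3 d6, against 4187 to 4622 and 4057 to 4376 CPM in the matching PBS groups. Kit, which encodes the c-Kit antigen of the gate, was among the markers that fell, from 1075 ± 86.2 to 597 ± 22.03 CPM (mean ± SD, n = 3) after 5-FU once and from 1012 ± 55.3 to 757 ± 25.6 CPM after 5-FU 3 times. The summed level of 13 myeloid markers was lower at day 6 after 5-FU (61.0 to 75.3 against 102 to 153 CPM after 1 administration, 53.4 to 77.1 against 92.9 to 126 CPM after 3), while beta-globin Hbb-bs was higher (43.2 ± 3.67 against 5.93 ± 1.43 CPM, and 18.9 ± 2.56 against 6.54 ± 0.502 CPM). For the 9 erythroid markers in the count table, Hbb-bs among them, the summed level was lower at day 6 after 5-FU. That sum was 1143 to 1197 against 1390 to 1427 CPM after 1 administration, and 1097 to 1143 against 1296 to 1534 CPM after 3. Of the listed markers that passed the filter, 3 HSC markers rose and 2 fell after 5-FU once and 1 rose and 4 fell after 5-FU 3 times. The corresponding numbers were 0 and 6 of 10, then 0 and 2 of 9 myeloid markers, 2 and 2, then 3 and 2 of 7 erythroid markers, 0 and 3, then 0 and 2 of 6 megakaryocyte markers, 1 and 2, then 1 and 1 of 4 gate-negative antigens, 0 and 0, then 0 and 1 of 2 lymphoid markers, and none of the 2 and 4 stromal and endothelial markers. The T cell gene Cd3e was at 0 in all 12 libraries of day 6. The part of the widened gate and of these cell markers in the results at day 6 was not tested.

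In PBS-treated HSCs the members covered a wide range of levels. Per kilobase of the longest transcript, Trp53 was the highest of the 32 members, at 51.1 ± 4.02 CPM per kb in PBS-1 d6 and 55.0 ± 0.636 in PBS-3 d6. Sesn1, Ei24 and Mdm4 followed in PBS-1 d6, at 43.8 ± 5.47, 43.5 ± 4.31 and 43.4 ± 3.59 CPM per kb, and their ranges overlapped. Cdkn1a stood at 2.48 ± 0.617 CPM per kb, Zmat3 at 0.191 ± 0.0948 and Pmaip1 at 0.0999 ± 0.102. The range of Trp53 overlapped with those of Sesn1 and Ei24 in PBS-1 d6 and with that of no other member in PBS-3 d6, and Cdkn1a was among the lower members.

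**Figure D1:**
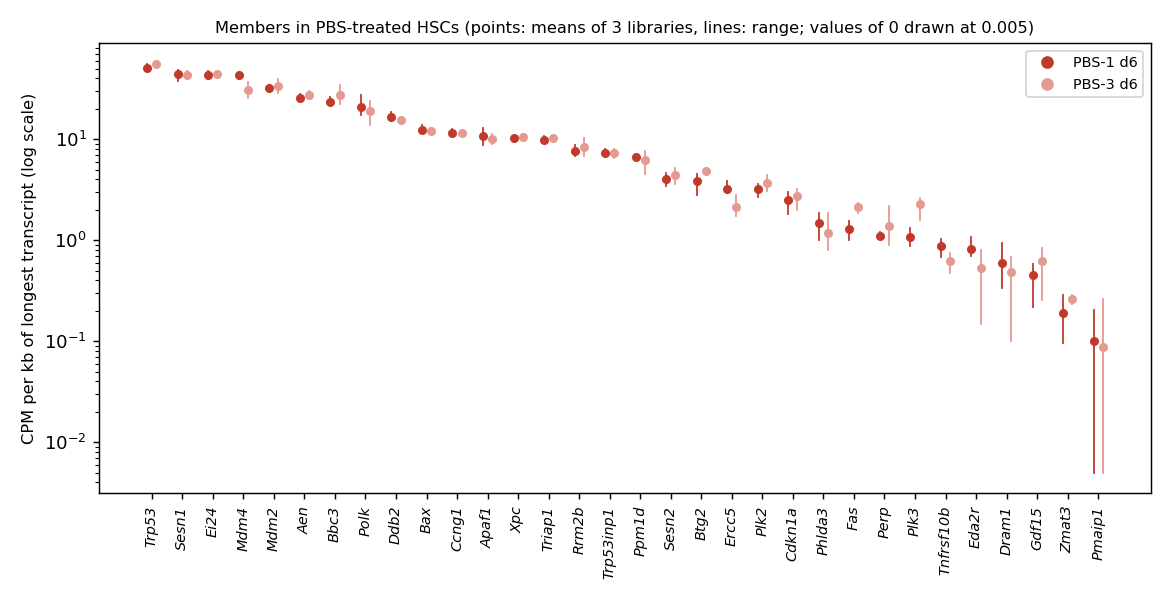
Level of each of the 32 members in HSCs of mice given PBS once (dark red) or 3 times (light red), in CPM per kb of the longest transcript on a log axis, with points for means of 3 libraries and lines for the range. Trp53 is at the upper end and Pmaip1, listed at 0 in part of the libraries and drawn there at 0.005, at the lower end.

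At day 6 after 5-FU once, 10 of the 31 members tested changed against PBS, 6 of them upward and 4 downward (edgeR quasi-likelihood test, Benjamini-Hochberg adjusted p under 0.05 over all genes tested). The arrest gene Cdkn1a rose 2.72-fold and Plk3 3.01-fold, together with the death and survival genes Zmat3, Phlda3 and Aen and the stress gene Sesn1, whereas the repair genes Polk and Rrm2b, the arrest gene Ccng1 and the p53 regulator Mdm4 fell. Among all 12759 genes tested, 11.5% rose and 10.6% fell, against 6 and 4 of the 31 members. The median log2 fold change of the members was 0.03, beside −0.00 for all genes, so the members did not move together in 1 direction. For 18 members the 3 libraries given 5-FU did not overlap with the 3 given PBS, beside 43.8% of all genes. With 1 library left out, 3 to 7 members passed: 5, 3 and 5 without 5FU-1 d6 replicates 1, 2 and 3, and 7, 5 and 4 without PBS-1 d6 replicates 1, 2 and 3. Such fits, here and in the comparisons below, had fewer libraries, and the share of all genes that passed in them is not given.

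At day 6 after 5-FU 3 times, 6 of 31 members changed against PBS given 3 times, with Aen rising and Plk2, Trp53inp1, Ddb2, Ccng1 and Xpc falling. Of the 12729 genes tested, 9.84% rose and 8.3% fell. The median of the members was 0.12, beside −0.01 for all genes, and 15 members had groups without overlap, beside 40.3% of all genes. With 1 library left out, 1 to 5 members passed: 5, 4 and 2 without 5FU-3 d6 replicates 1, 2 and 3, and 4, 1 and 2 without PBS-3 d6 replicates 1, 2 and 3. The comparisons after 1 and after 3 administrations shared no library. Aen and Ccng1 were called in both, which is 2 of the 10 and 2 of the 6. Over all genes, 1202 were called in both, beside 2827 called after 1 and 2310 after 3 administrations. The log2 fold changes of 25 of the 31 members had the same sign in both comparisons (80.6%), beside 72.9% of the 12502 genes tested in both.

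**Figure D2:**
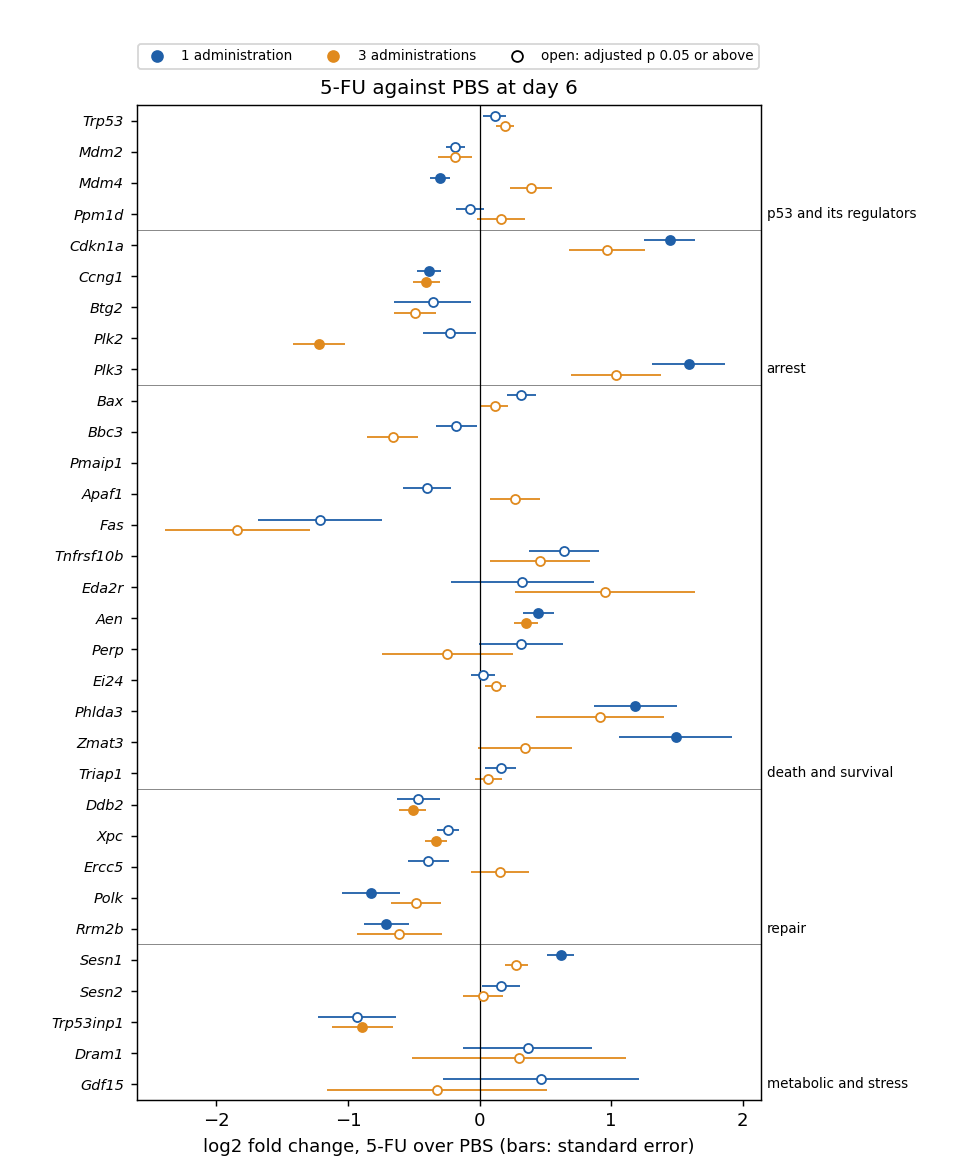
Log2 fold change of each member at day 6, 5-FU over PBS, with its standard error, after 1 (blue) and 3 administrations (orange); filled points passed an adjusted p of 0.05. Cdkn1a, Plk3 and Sesn1 lie to the right of 0 and Ccng1, Polk, Rrm2b and Trp53inp1 to the left in both, and Pmaip1, which was not tested, has no point.

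Of the 4 genes of p53 and its regulators, Mdm4 fell after 5-FU once and none passed after 5-FU 3 times. Trp53 (chr11:69580359-69591873) was at 181, 167 and 155 CPM in the 3 libraries of PBS-1 d6 and at 178, 198 and 172 CPM in those of 5FU-1 d6, which overlapped, with a log2 fold change of 0.12 ± 0.09 (SE; adjusted p = 0.366). After 3 administrations the 5-FU libraries were at 201, 208 and 219.8 CPM, all above the PBS libraries at 179.6, 178 and 182 CPM, but the difference of 0.20 ± 0.07 on the log2 scale did not pass (adjusted p = 0.095; 0.0123 in DESeq2). Mdm2 (chr10:117688875-117710758), the ligase that both restrains p53 and is induced by it, was at 108, 93.5 and 101 CPM after PBS and 88.8, 88.7 and 90.2 CPM after 5-FU once, so that every library given 5-FU was below every PBS library. Its log2 fold change was −0.18 ± 0.07 (adjusted p = 0.118; 0.0454 in DESeq2), and after 3 administrations it was −0.19 ± 0.13 (adjusted p = 0.348), with libraries at 125, 102 and 90.99 CPM after PBS and 95.9, 88.0 and 99.4 CPM after 5-FU. Mdm2 thus did not rise at the day on which Cdkn1a was higher. Mdm4 (chr1:132959484-133030561) fell after 5-FU once, from 279, 328 and 317 to 247, 262 and 246 CPM (log2 fold change −0.30 ± 0.08, adjusted p = 0.0312). After 3 administrations Mdm4 was at 212, 261 and 181 CPM with PBS and 258, 339 and 272 CPM with 5-FU (0.39 ± 0.16, adjusted p = 0.134). The PBS libraries of the later time were lower than those of the earlier, and the 5-FU groups of both times overlapped. The call of Mdm4 was lost without any 1 of the 3 libraries of 5FU-1 d6 or without PBS-1 d6 replicate 2 or 3 (adjusted p 0.0622 to 0.0942), and in a single fit of all 21 libraries (0.173). Ppm1d, a phosphatase that switches off p53 signaling, stayed between 13.2 and 23.7 CPM in all 21 libraries and did not pass in either comparison (adjusted p = 0.669 and 0.574).

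The arrest genes split in direction. Cdkn1a (chr17:29090976-29100727), which encodes the cyclin-dependent kinase inhibitor p21, was at 6.3, 3.77 and 5.39 CPM in PBS-1 d6 and at 14.04, 13.96 and 14.4 CPM in 5FU-1 d6. The groups were far apart, and the log2 fold change was 1.44 ± 0.19 (adjusted p = 0.00385). After 3 administrations it was at 6.43, 4.1 and 6.65 CPM with PBS and 7.51, 14.2 and 12.4 CPM with 5-FU, again without overlap, but the difference of 0.97 ± 0.29 did not pass (adjusted p = 0.059; 0.0198 in DESeq2). The first library of that 5-FU group was nearer to PBS than the other 2. Plk3 (chr4:117128655-117133963), a stress-responsive polo-like kinase, was at 3.34, 2.2 and 2.61 CPM in PBS-1 d6 and 6.47, 7.37 and 10.8 CPM in 5FU-1 d6 (1.59 ± 0.28, adjusted p = 0.00925). With PBS 3 times it was at 6.46, 6.58 and 4.02 CPM, close to the level of 5FU-1 d6 in 2 of 3 libraries, and with 5-FU 3 times at 6.77, 16.1 and 12.8 CPM (1.04 ± 0.34, adjusted p = 0.0784; 0.0343 in DESeq2). The rise of Plk3 after 5-FU once was therefore measured against the lower of the 2 PBS groups. Without replicate 1 of 5FU-3 d6, both Cdkn1a and Plk3 passed after 3 administrations as well.

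Plk2 (chr13:110395046-110400844), a related kinase that is also a p53 target, went the other way. It was at 9.23, 7.54 and 10.0 CPM in PBS-1 d6 and 9.04, 5.93 and 8.08 CPM in 5FU-1 d6, which overlapped (−0.23 ± 0.20, adjusted p = 0.447). After 3 administrations it fell from 8.52, 12.3 and 10.2 CPM to 5.23, 4.01 and 4.28 CPM (−1.22 ± 0.20, adjusted p = 0.009). Ccng1 (chr11:40748552-40755311), which encodes cyclin G1, fell in both comparisons, from 37.3, 44.1 and 38.99 to 31.1, 29.5 and 32.3 CPM after 5-FU once (−0.38 ± 0.09, adjusted p = 0.0233) and from 38.3, 43.2 and 39.8 to 32.6, 33.1 and 27.4 CPM after 5-FU 3 times (−0.40 ± 0.10, adjusted p = 0.0345). No library given 5-FU reached the lowest of its PBS libraries in either case. Cdkn1a and Ccng1 thus moved apart after 5-FU once. Of the 24 members searched, only these had a p53 element within 250 bases of a start. Btg2, an antiproliferative gene, was at 7.67, 11.5 and 12.3 CPM with PBS and 11.8, 5.96 and 7.04 CPM with 5-FU once (adjusted p = 0.41), and at 12.7, 14.1 and 12.98 against 10.8, 10.4 and 7.45 CPM after 3 administrations (−0.49 ± 0.16, adjusted p = 0.077). Leaving out 1 library at a time kept the calls of Cdkn1a and Plk3 after 1 administration (adjusted p up to 0.0156 and 0.0325) and of Plk2 after 3 (up to 0.0368). The call of Ccng1 was lost without any 1 of the 5FU-1 d6 libraries or PBS-1 d6 replicate 2 (0.0514 to 0.0832), and after 3 administrations in all 6 such fits (0.0596 to 0.097).

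**Figure D3:**
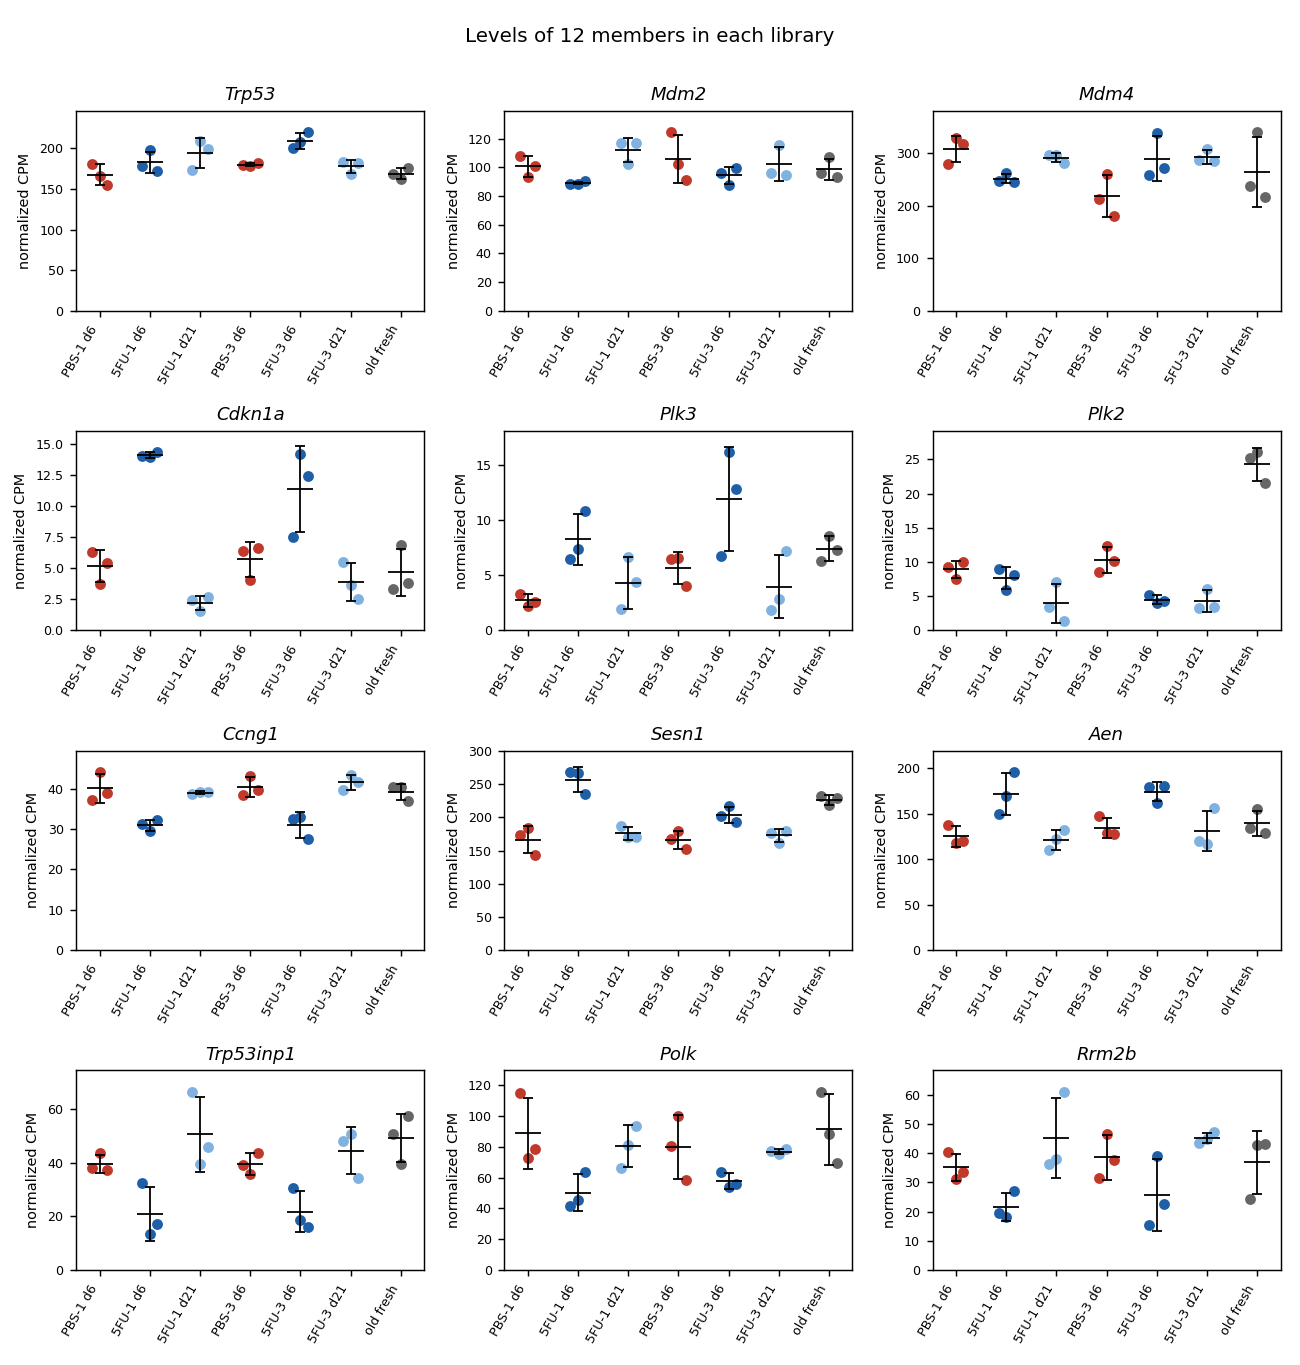
Normalized CPM of 12 members in each of the 21 libraries by group, with points for libraries (red, PBS; dark blue, 5-FU at day 6; light blue, 5-FU at day 21; grey, old) and bars for the mean ± SD of 3 libraries. The Cdkn1a points of 5FU-1 d6 lie together at 13.96 to 14.4 CPM, and the Plk2 points of old HSCs, at 21.6 to 26.1 CPM, lie above those of every other group.

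Among the 13 death and survival genes, 12 were tested, of which 3 rose after 5-FU once and 1 after 5-FU 3 times, beside 11.5% and 9.84% of all genes, and none passed downward. Zmat3 (chr3:32334792-32366014), a zinc finger gene that acts in p53-dependent growth control, was at 2.22, 0.746 and 1.5 CPM in PBS-1 d6 and 4.5, 3.93 and 4.25 CPM in 5FU-1 d6 (1.49 ± 0.43, adjusted p = 0.0458). After 3 administrations the levels of 1.83, 2.11 and 2.24 CPM with PBS and 3.2, 2.05 and 2.72 CPM with 5-FU overlapped (0.35 ± 0.36, adjusted p = 0.546). Zmat3 was low throughout, and its PBS-1 d6 libraries differed widely from one another. Phlda3 (chr1:135766119-135769136), a repressor of Akt, was at 1.45, 2.65 and 2.27 CPM in PBS-1 d6 and 4.08, 5.37 and 5.09 CPM in 5FU-1 d6 (1.18 ± 0.31, adjusted p = 0.0359). After 3 administrations it was at 1.16, 2.67 and 1.24 CPM with PBS and 2.09, 4.2 and 3.43 CPM with 5-FU (0.91 ± 0.49, adjusted p = 0.241). Aen (chr7:78895854-78911209), an apoptosis-enhancing nuclease, was far more abundant and rose in both comparisons without overlap. It went from 138, 118 and 119.6 to 149.95, 169 and 196 CPM after 1 administration (0.45 ± 0.11, adjusted p = 0.0321), and from 148, 128 and 128 to 179.95, 162 and 180.4 CPM after 3 (0.35 ± 0.09, adjusted p = 0.0369). These calls were near the threshold: that of Phlda3 was lost in each of the 6 fits without 1 library (adjusted p 0.0512 to 0.112) and in a single fit of all 21 libraries (0.16). That of Zmat3 was lost in all but the fit without PBS-1 d6 replicate 1 (0.0705 to 0.113), and it was also lost when genes with at least 1 count were kept. That of Aen after 1 administration was lost without 5FU-1 d6 or PBS-1 d6 replicates 2 and 3 (0.0755 to 0.0947), and after 3 without 5FU-3 d6 replicates 1 and 3 or PBS-3 d6 replicates 2 and 3 (0.101 to 0.106) and with library size alone as the scaling (0.076).

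Bbc3, Bax and Apaf1 did not pass the test at day 6. Bbc3, which encodes the BH3-only protein PUMA, was at 39.2, 40.7 and 47.5 CPM with PBS and 44.9, 29.8 and 38.9 CPM with 5-FU once (−0.18 ± 0.15, adjusted p = 0.446). After 3 administrations its PBS libraries were at 40.2, 61.7 and 47.0 CPM and its 5-FU libraries at 37.9, 31.9 and 25.8 CPM, all lower (−0.66 ± 0.19, adjusted p = 0.0564; 0.0117 in DESeq2). Bax, the pore-forming effector, was at 12.7, 13.1 and 15.02 CPM in PBS-1 d6 and 17.6, 15.7 and 17.9 CPM in 5FU-1 d6, without overlap (0.32 ± 0.11, adjusted p = 0.0735), and its difference after 3 administrations was 0.12 ± 0.10 (adjusted p = 0.474). In a single fit of all 21 libraries, Bax was called higher after 5-FU once. Of its exonic bases, 12.2% are shared with Gm45808 on the same strand, so that reads there may be split. Pmaip1, which encodes NOXA, was not tested: it had 0 to 23 counts per library, was at 0 in 10 of the 21 libraries, and was at or under the floor of 3 counts in 14. Apaf1, the scaffold of the apoptosome, was at 56.9, 84.2 and 69.0 CPM with PBS and 46.1, 48.2 and 66.1 CPM with 5-FU once (−0.40 ± 0.18, adjusted p = 0.158), and its difference after 3 administrations was 0.27 ± 0.19 (adjusted p = 0.368).

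The death receptors differed from one another. Tnfrsf10b, a receptor for TRAIL, was at 2.97, 2.16 and 3.3 CPM in PBS-1 d6 and 4.12, 4.63 and 4.48 CPM in 5FU-1 d6 (0.64 ± 0.27, adjusted p = 0.124). Fas had log2 fold changes of −1.21 ± 0.47 (adjusted p = 0.105; 0.0362 in DESeq2) and −1.84 ± 0.55 (adjusted p = 0.0608; 0.00464 in DESeq2) after 1 and 3 administrations, with no overlap between the groups of day 6 in either, at levels between 0.368 and 3.8 CPM over all libraries. At day 6 every library given 5-FU was thus below its matching PBS libraries for this receptor gene. Eda2r, a receptor for ectodysplasin A2, ran from 0.0284 to 9.48 CPM, and in both 5-FU groups of day 6 its libraries overlapped with PBS. Perp, a tetraspan membrane gene, ran from 0.183 to 5.48 CPM, Ei24, a gene of the endoplasmic reticulum, from 85.1 to 116 CPM, and the survival gene Triap1 from 9.52 to 12.5 CPM, and none of these passed at day 6 (adjusted p from 0.321 to 0.854).

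Of the 5 repair genes, 2 fell after 5-FU once and 2 others after 5-FU 3 times, beside the 10.6% and 8.3% of all genes that fell, and none passed upward. Polk (chr13:96480690-96542579), a translesion DNA polymerase, fell after 5-FU once from 115, 72.6 and 78.3 to 41.5, 45.7 and 63.7 CPM (−0.83 ± 0.22, adjusted p = 0.036). After 3 administrations it was at 80.5, 100.1 and 58.6 CPM with PBS and 63.6, 54.0 and 56.1 CPM with 5-FU (−0.48 ± 0.19, adjusted p = 0.123), with 1 of the 5-FU libraries inside the PBS range. Rrm2b (chr15:37923952-37961318), the p53-inducible subunit of ribonucleotide reductase, fell after 5-FU once from 40.3, 31.2 and 33.6 to 19.4, 18.2 and 27.1 CPM (−0.71 ± 0.17, adjusted p = 0.0268). After 3 administrations its 5-FU libraries, at 15.3, 39.03 and 22.6 CPM, spread across the PBS libraries at 31.4, 46.6 and 37.6 CPM (−0.61 ± 0.32, adjusted p = 0.241). Ddb2 (chr2:91211572-91236982) and Xpc (chr6:91489305-91515888), which recognize lesions for global genome nucleotide excision repair, fell after 3 administrations. Ddb2 went from 33.4, 37.2 and 36.4 to 25.8, 28.0 and 22.6 CPM (−0.51 ± 0.10, adjusted p = 0.0173) and Xpc from 44.4, 48.8 and 43.1 to 34.7, 37.7 and 37.6 CPM (−0.33 ± 0.08, adjusted p = 0.0357). After 1 administration both had no overlap in the same direction but did not pass: Ddb2 was at 38.0, 34.9 and 42.2 against 21.3, 33.4 and 29.1 CPM (−0.46 ± 0.17, adjusted p = 0.0854; 0.0475 in DESeq2), and Xpc at 42.4, 43.7 and 47.2 against 38.2, 35.1 and 40.5 CPM (−0.24 ± 0.08, adjusted p = 0.0842; 0.0476 in DESeq2). Ercc5, an endonuclease of the same pathway, was between 7.36 and 16.2 CPM and did not pass (−0.39 ± 0.16 and 0.16 ± 0.22, adjusted p = 0.119 and 0.67). Of the exonic bases of Ddb2, 23.8% overlap Acp2 on the other strand, as do 8.0% of those of Rrm2b with Gm49085, and whether the counting used the strand is not given in the sources used here. The calls of Polk and Rrm2b were lost without 5FU-1 d6 replicates 1 and 2 or PBS-1 d6 replicates 1 and 3 (adjusted p 0.0604 to 0.107 and 0.0598 to 0.0855), and that of Rrm2b also in a single fit of all 21 libraries (0.103). That of Ddb2 was lost without PBS-3 d6 replicates 2 and 3 (0.0538 to 0.0544), and that of Xpc in each of the 6 fits without 1 library (0.0612 to 0.112).

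Among the metabolic and stress genes, Sesn1 and Trp53inp1 moved in opposite directions. Sesn1 (chr10:41809935-41908424), a sestrin that restrains mTORC1, rose after 5-FU once from 173, 183 and 143 to 269, 267 and 236 CPM (0.62 ± 0.10, adjusted p = 0.00835). After 3 administrations it was at 167, 179 and 152 CPM with PBS and 201, 218 and 194 CPM with 5-FU, again without overlap (0.28 ± 0.09, adjusted p = 0.0697; 0.0153 in DESeq2). Trp53inp1 (chr4:11156431-11174379), a p53-induced gene of autophagy and cell death, fell after 3 administrations from 39.2, 35.7 and 43.7 to 30.4, 18.5 and 16.1 CPM (−0.89 ± 0.23, adjusted p = 0.0394). After 1 administration it was at 37.8, 43.4 and 37.3 CPM with PBS and 32.2, 13.3 and 17.3 CPM with 5-FU, and the difference of similar size did not pass (−0.93 ± 0.29, adjusted p = 0.0603; 0.0113 in DESeq2). In both 5-FU groups the first library was the highest. Sesn2, a second sestrin, stayed between 11.8 and 18.1 CPM, the autophagy gene Dram1 between 0 and 2.71 CPM and the stress cytokine Gdf15 between 0.146 and 2.63 CPM, and none passed at day 6. The call of Sesn1 held with any 1 library left out (adjusted p up to 0.0323), whereas that of Trp53inp1 held only without 5FU-3 d6 replicate 1 (0.069 to 0.115 in the other 5 fits).

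**Figure D4:**
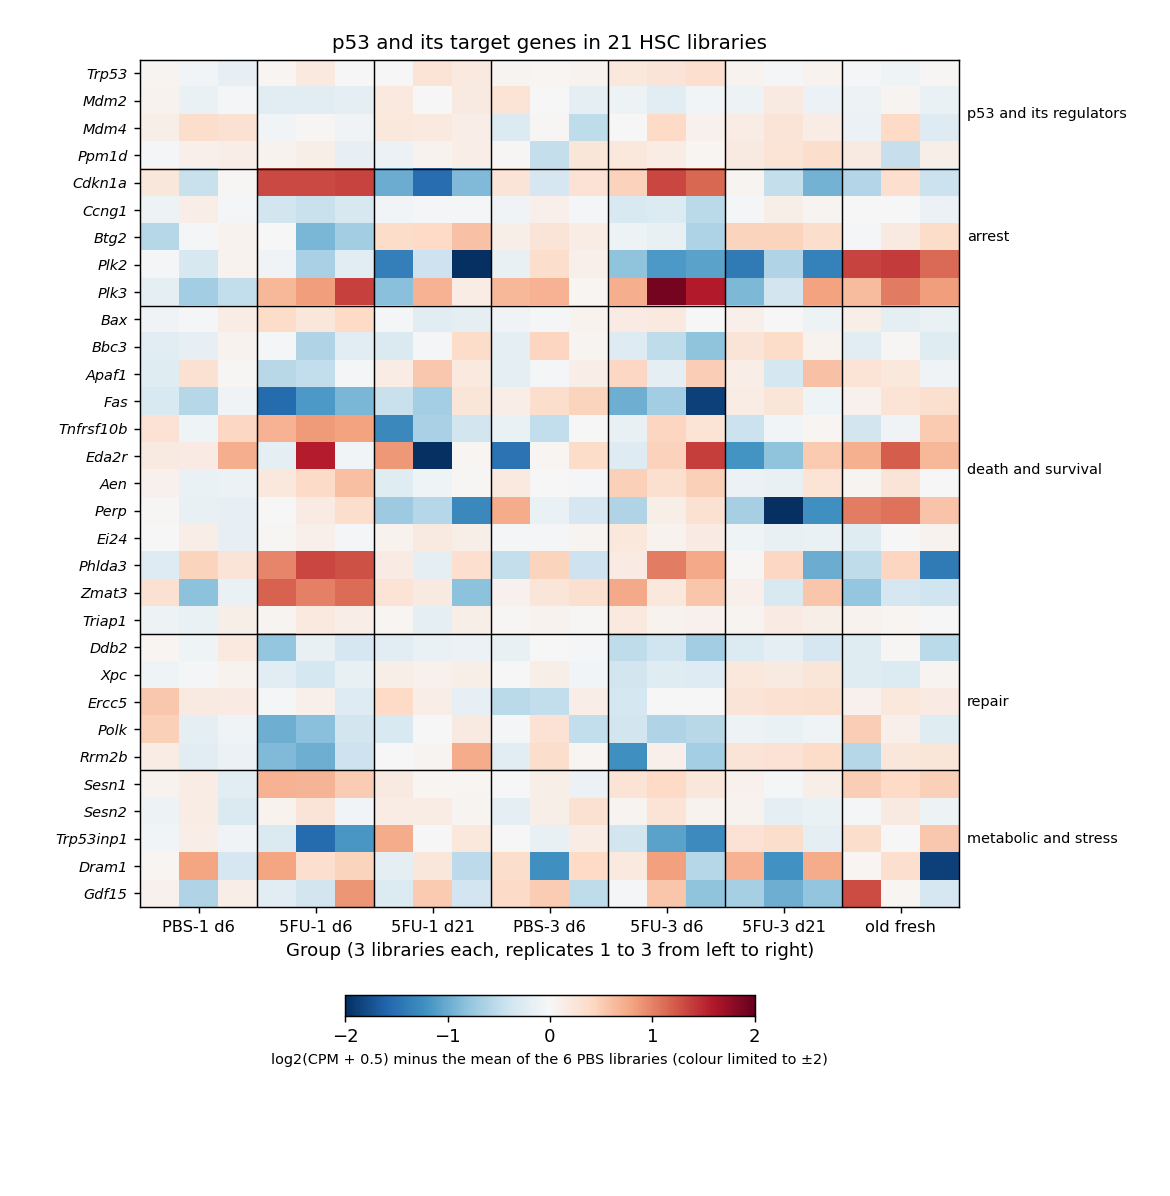
Level of 31 members (rows, by role) in 21 libraries (columns, by group) as log2(CPM + 0.5) minus the mean of the 6 PBS libraries, with colours limited to ±2; Pmaip1 is left out for its low counts. In the day 6 groups given 5-FU, rows of both colours stand beside each other within each role but repair, with Cdkn1a and Plk3 red and Fas and Trp53inp1 blue. The repair rows are mostly blue or pale there.

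The effects of 5-FU at day 6 after 1 and 3 administrations were compared directly in 12 libraries. None of the 32 members passed (edgeR), 4 had an unadjusted p under 0.05, and DESeq2 called 2, Mdm4 and Plk2, while 0.65% of all 13227 genes tested passed in either direction. The difference was 0.70 ± 0.19 for Mdm4 (adjusted p = 0.105; 0.0126 in DESeq2), −0.98 ± 0.28 for Plk2 (adjusted p = 0.131; 0.0425 in DESeq2), 0.68 ± 0.29 for Apaf1 (adjusted p = 0.307) and −0.33 ± 0.14 for Sesn1 (adjusted p = 0.312). For Cdkn1a it was −0.46 ± 0.37 (adjusted p = 0.611) and for Plk3 −0.54 ± 0.46 (adjusted p = 0.643), so that the loss of their calls after 3 administrations was not itself a difference that passed.

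At day 21 no member passed against PBS in the edgeR test. After 5-FU once 0 of 31 members passed (edgeR), with 3 at an unadjusted p under 0.05 and 1 called by DESeq2, and 0.221% of all 12647 genes passed. The member called by DESeq2 was Cdkn1a, which stood at 2.42, 1.53 and 2.67 CPM, below all libraries of PBS-1 d6 (−1.22 ± 0.35, adjusted p = 0.195; 0.0267 in DESeq2). Btg2, at 15.2, 15.5 and 17.8 CPM, was above all of them (0.63 ± 0.19, adjusted p = 0.223), and Tnfrsf10b, at 0.664, 1.31 and 1.69 CPM, below (−1.19 ± 0.50, adjusted p = 0.361). After 5-FU 3 times 0 of 31 members passed, with 7 at an unadjusted p under 0.05 and 1, Plk2, called by DESeq2, and 0.0475% of 12632 genes passed. Plk2 was at 3.25, 6.1 and 3.43 CPM, below all libraries of PBS-3 d6 (−1.28 ± 0.29, adjusted p = 0.158; 0.00721 in DESeq2), and in 5FU-1 d21 it was at 3.4, 7.04 and 1.43 CPM (−1.17 ± 0.51, adjusted p = 0.38). Cdkn1a in 5FU-3 d21 was at 5.53, 3.69 and 2.52 CPM and overlapped with PBS-3 d6 (−0.55 ± 0.36, adjusted p = 0.556). Trp53 was at 173, 209.7 and 199.6 CPM in 5FU-1 d21 and at 183, 168 and 182 CPM in 5FU-3 d21, with adjusted p of 0.419 and 0.92.

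Between day 6 and day 21, members of each of the roles moved after 5-FU once, with Cdkn1a moving most, and members of all roles but p53 and its regulators moved after 5-FU 3 times. These comparisons use the same day 6 libraries as those with PBS, so their values are given side by side and not as independent evidence. After 5-FU once, 8 of 31 members rose and 6 fell from day 6 to day 21, beside 12.3% and 13.7% of all 12589 genes. After 5-FU 3 times, 6 of 30 members rose and 1 fell, beside 8.68% and 10.8% of 12553 genes. In these 2 comparisons, which shared no library, Cdkn1a, Ccng1, Btg2, Xpc, Polk and Trp53inp1 were called in both, which is 6 of the 14 and 6 of the 7. Over all genes, 1394 were called in both, beside 3272 called after 1 and 2450 after 3 administrations. The sign was the same for 25 of 30 members (83.3%), beside 72.9% of the 12342 genes tested in both. With 1 library left out, 3 to 11 members passed after 1 administration: 11, 9 and 8 without replicates 1, 2 and 3 of day 21, and 5, 3 and 6 without those of day 6. After 3 administrations 3 to 6 passed: 3, 3 and 6 without replicates 1, 2 and 3 of day 21, and 6, 4 and 3 without those of day 6. Markers of other cells and of the gate moved in the same comparisons: 6 of 10 myeloid markers rose and 0 fell after 5-FU once and 4 of 10 rose and 0 fell after 5-FU 3 times, with summed levels at day 21 of 105 to 188 and 119 to 152 CPM over the 13 listed. Itgam, which encodes the Mac-1 antigen, rose by 1.99 ± 0.15 (adjusted p = 0.000717) and 0.92 ± 0.26 (adjusted p = 0.0479) on the log2 scale, and Kit by 1.15 ± 0.06 (adjusted p = 0.000521) and 0.64 ± 0.09 (adjusted p = 0.00429). Of the 12 HSC markers 4 rose and 2 fell, then 5 rose and 0 fell. The part of these markers, and of the gate that differed between the days, in the results between day 6 and day 21 was not tested.

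Cdkn1a fell from 14.04, 13.96 and 14.4 CPM to the 1.53 to 2.67 CPM given above after 5-FU once (−2.67 ± 0.23, adjusted p = 0.000998) and by 1.53 ± 0.35 on the log2 scale after 5-FU 3 times (adjusted p = 0.0228). Among the other arrest genes, Ccng1 rose to 38.6, 39.3 and 39.1 CPM (0.34 ± 0.08, adjusted p = 0.0202) and to 39.7, 43.4 and 41.6 CPM (0.43 ± 0.10, adjusted p = 0.0258), levels that overlapped with those of PBS. Btg2 rose by 0.98 ± 0.25 (adjusted p = 0.0276) and, to 16.1, 16.1 and 15.1 CPM, by 0.73 ± 0.16 (adjusted p = 0.0199). Plk3 had differences of −0.91 ± 0.43 (adjusted p = 0.16) and −1.58 ± 0.52 (adjusted p = 0.0739; 0.0188 in DESeq2), with libraries of day 21 at 1.95, 6.65 and 4.37 CPM and at 1.87, 2.89 and 7.17 CPM. Of the regulators, Mdm2 rose after 5-FU once to 117, 103 and 117 CPM (0.34 ± 0.08, adjusted p = 0.0229), above all libraries of day 6. After 3 administrations Mdm2 was at 96.2, 116 and 94.7 CPM (0.12 ± 0.11, adjusted p = 0.483). Mdm2 and Cdkn1a, both textbook targets of p53, thus moved in opposite directions between day 6 and day 21 after 5-FU once. Leaving out 1 library kept the call of Cdkn1a after 1 administration in all 6 fits (adjusted p up to 0.00742), and after 3 it was lost without replicates 2 and 3 of either day (0.0541 to 0.0767). The call of Ccng1 was lost without any 1 of the 5FU-1 d6 libraries (0.0518 to 0.0782) and, after 3 administrations, in all fits but the one without 5FU-3 d6 replicate 2 (0.0501 to 0.0738). That of Btg2 was lost in all fits but the one without 5FU-1 d6 replicate 1 (0.0529 to 0.0902) and without 5FU-3 d21 replicates 1 and 2 (0.0545 to 0.0558). That of Mdm2 was lost without 5FU-1 d21 replicate 3 or any 1 of the 5FU-1 d6 libraries (0.0611 to 0.0743).

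Of the 12 death and survival genes tested, Tnfrsf10b, Phlda3, Aen and Bax fell between day 6 and day 21 after 5-FU once and Apaf1 rose, while after 5-FU 3 times Bbc3 rose alone. Among all genes, 13.7% fell and 12.3% rose after 5-FU once, and 10.8% fell and 8.68% rose after 5-FU 3 times. Tnfrsf10b went to the 0.664 to 1.69 CPM given above (−1.83 ± 0.42, adjusted p = 0.0195), and Phlda3 to 2.11, 1.53 and 2.44 CPM (−1.25 ± 0.31, adjusted p = 0.0255). Aen went to 110.01, 122 and 132 CPM (−0.49 ± 0.12, adjusted p = 0.0233) and Bax to 13.1, 11.6 and 11.7 CPM (−0.49 ± 0.11, adjusted p = 0.0186). Apaf1 rose to 74.9, 98.5 and 77.3 CPM (0.65 ± 0.17, adjusted p = 0.0302). Bbc3 was at 54.6, 58.6 and 48.0 CPM in 5FU-3 d21, all above the day 6 libraries (0.76 ± 0.15, adjusted p = 0.0148), and at 37.2, 44.7 and 58.5 CPM in 5FU-1 d21 (0.32 ± 0.20, adjusted p = 0.283). Zmat3 was at 2.15, 1.99 and 0.743 CPM in 5FU-1 d21 (−1.37 ± 0.45, adjusted p = 0.0616; 0.0172 in DESeq2) and at 1.87, 1.28 and 2.72 CPM in 5FU-3 d21 (−0.44 ± 0.43, adjusted p = 0.521). Without 1 library, the call of Tnfrsf10b was lost for any 1 of the 5FU-1 d6 libraries (0.0559 to 0.069), that of Phlda3 for these and 5FU-1 d21 replicate 2 (0.0546 to 0.097) and in a single fit of all 21 libraries (0.112), and that of Aen for replicates 2 and 3 of day 6 and 1 and 2 of day 21 (0.0562 to 0.0704). That of Bax was lost for replicates 1 and 3 of day 6 and 2 and 3 of day 21 (0.0546 to 0.0689), that of Apaf1 for replicates 1 and 2 of day 6 and 2 of day 21 (0.0715 to 0.0988), and that of Bbc3 for 5FU-3 d6 replicate 2 (0.0515).

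Of the 5 repair genes, 3 rose between day 6 and day 21 after 5-FU once and 2 after 5-FU 3 times, beside the 12.3% and 8.68% of all genes that rose. Rrm2b went to 36.3, 38.0 and 60.9 CPM after 5-FU once (1.07 ± 0.24, adjusted p = 0.0183) and to 43.5, 44.7 and 47.1 CPM after 5-FU 3 times (0.82 ± 0.30, adjusted p = 0.0961; 0.0338 in DESeq2). Polk went to 66.2, 81.4 and 93.3 CPM (0.68 ± 0.19, adjusted p = 0.0361) and to 77.0, 75.03 and 78.3 CPM (0.41 ± 0.09, adjusted p = 0.0211). Xpc went to 48.7, 47.6 and 48.9 CPM (0.36 ± 0.08, adjusted p = 0.0212) and to 52.1, 50.9 and 53.4 CPM (0.51 ± 0.08, adjusted p = 0.00619), in both cases above the highest of its PBS libraries. Ddb2 had differences of 0.26 ± 0.16 (adjusted p = 0.267) and 0.28 ± 0.10 (adjusted p = 0.108), and its day 21 libraries, at 29.2 to 34.1 CPM, were below all of their PBS libraries. Among the metabolic genes, Trp53inp1 rose to 66.3, 39.6 and 45.6 CPM (1.28 ± 0.34, adjusted p = 0.0318) and to 48.1, 50.6 and 34.4 CPM (1.04 ± 0.26, adjusted p = 0.0306). Sesn1 fell after 5-FU once to 187, 170.5 and 171 CPM (−0.54 ± 0.08, adjusted p = 0.00548), and after 5-FU 3 times it was at 177, 162 and 180.3 CPM (−0.23 ± 0.08, adjusted p = 0.0883; 0.0172 in DESeq2). The calls of Sesn1 after 1 administration and of Xpc after 3 held with any 1 library left out (adjusted p up to 0.0273 and 0.027). That of Xpc after 1 was lost without replicates 1 and 2 of day 6 or 3 of day 21 (0.052 to 0.0784), that of Rrm2b without replicates 1 and 2 of day 6 (0.0645 to 0.0646), and that of Polk without these or replicates 2 and 3 of day 21 (0.0756 to 0.112), and after 3 administrations without replicates 2 and 3 of day 6 or 1 and 3 of day 21 (0.0567 to 0.076) and in a single fit of all 21 libraries (0.198). That of Trp53inp1 was lost without replicates 2 and 3 of day 6 or 1 and 3 of day 21 (0.0523 to 0.103), and after 3 administrations without replicates 2 and 3 of day 6 or 1 and 2 of day 21 (0.081 to 0.101).

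**Figure D5:**
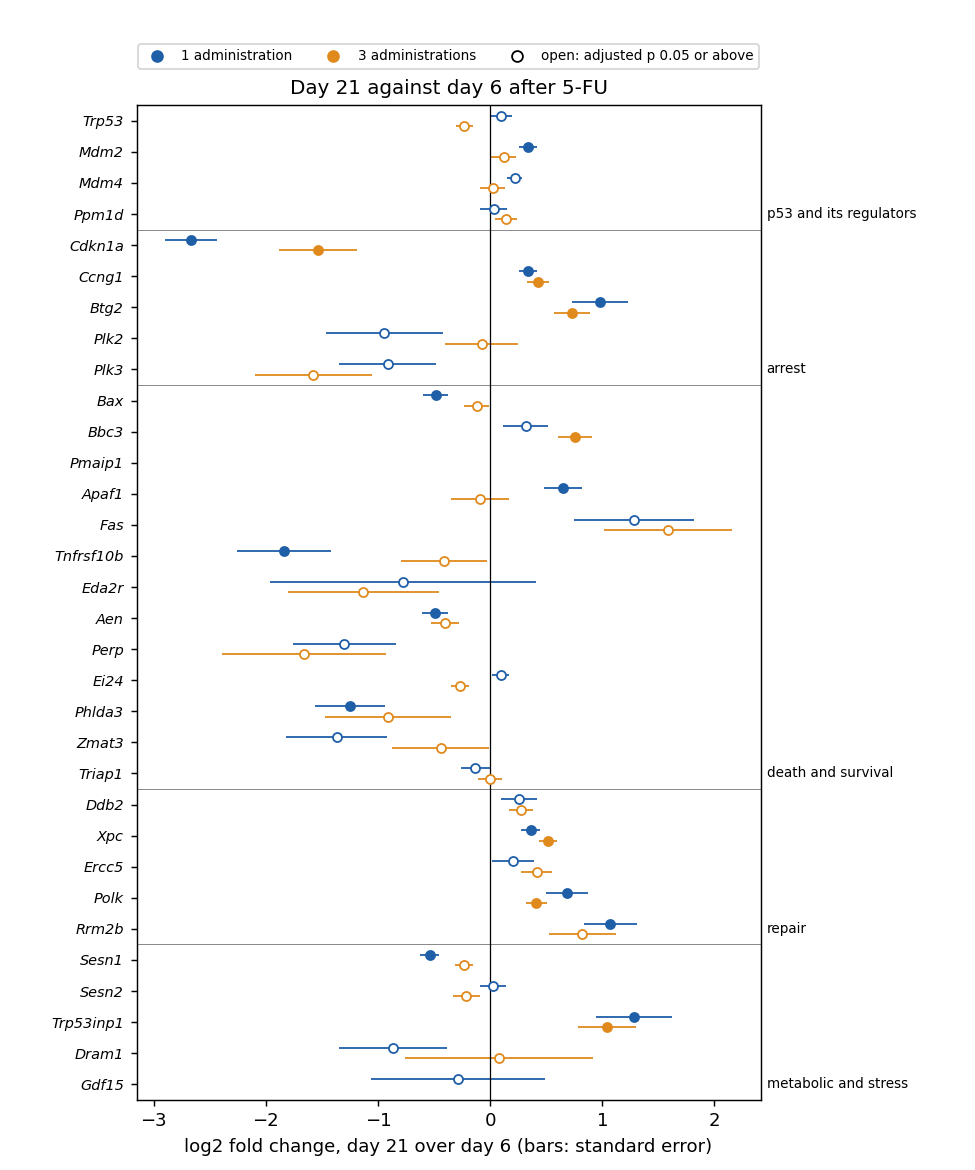
Log2 fold change of each member from day 6 to day 21 after 5-FU, with its standard error, after 1 (blue) and 3 administrations (orange); filled points passed an adjusted p of 0.05. Cdkn1a lies farthest to the left after 1 administration, at −2.67, while Ccng1, Btg2, Xpc, Polk and Trp53inp1 lie to the right of 0 in both.

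In old HSCs 1 of 31 members changed against PBS given 3 times, beside 0.553% of all 12847 genes that rose. Plk2 was at 25.2, 26.1 and 21.6 CPM in old HSCs and at 8.52, 12.3 and 10.2 CPM in PBS-3 d6 (1.22 ± 0.16, adjusted p = 0.02), and no library of any other group exceeded 12.3 CPM. Against PBS-1 d6 the log2 fold change of Plk2 was 1.44 ± 0.14 (adjusted p = 0.00361) and against all 6 PBS libraries 1.32 ± 0.14 (adjusted p = 0.00121). Sesn1, at 233, 218 and 229.7 CPM, was above all PBS libraries (0.44 ± 0.09, adjusted p = 0.0744; 4.08e-05 in DESeq2), and passed against the 6 PBS libraries (0.44 ± 0.09, adjusted p = 0.0276). Cdkn1a, at 3.38, 6.85 and 3.84 CPM, and Trp53, at 168, 163 and 176 CPM, were within or close to the PBS range. The call of Plk2 was lost without any 1 of the old libraries or PBS-3 d6 replicate 3 (adjusted p 0.0501 to 0.103), and in a single fit of all 21 libraries (0.121), which called Sesn1 alone. Age and the absence of any injection cannot be told apart in this comparison.

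The PBS groups themselves differed little in these genes. Between PBS 3 times and PBS once 0 of 31 members passed (edgeR), 3 had an unadjusted p under 0.05, and 0.0156% of 12806 genes passed in either direction. DESeq2 called 2 members, Plk3, which was higher after PBS 3 times (1.07 ± 0.30, adjusted p = 0.234; 0.049 in DESeq2), and Mdm4, which was lower (−0.50 ± 0.14, adjusted p = 0.235; 0.0236 in DESeq2). Neither gene had overlapping PBS groups. These are 2 of the members whose calls against PBS differed between 1 and 3 administrations. The PBS groups also differ in the ending of their column names, given below, whose meaning is not stated.

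Genes that act on p53 were followed in a list of 21, of which 18 were tested. After 5-FU once 2 rose and 0 fell, and after 5-FU 3 times 3 rose and 0 fell, beside the 11.5% and 9.84% of all genes that rose. The first share is near that of all genes. Chek1, a checkpoint kinase that phosphorylates p53 and restrains entry into mitosis, was called in both, going from 11.9 ± 0.854 to 20.5 ± 1.69 CPM (mean ± SD, n = 3; 0.78 ± 0.11 on the log2 scale, adjusted p = 0.00412) and from 11.8 ± 0.723 to 19.5 ± 3.1 CPM (0.70 ± 0.14, adjusted p = 0.0168). At day 21 it was at 10.6 ± 1.94 and 8.65 ± 0.511 CPM. At day 21 none of the list passed against PBS, and in old HSCs Cop1, a p53 ubiquitin ligase, fell. The median log2 fold changes of the list at day 6 were −0.02 and −0.06.

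Of 36 other genes known as p53 targets, 35 were in the table and 32 were tested. After 5-FU once 5 rose and 5 fell, with a median of 0.19, and after 5-FU 3 times 6 rose and 4 fell, with a median of 0.04. Of all genes, 11.5% rose and 10.6% fell in the first comparison and 9.84% rose and 8.3% fell in the second, so that genes moved both ways in the list as they did among all genes. Rps27l, a ribosomal protein paralog, rose in both, from 122 ± 3.55 to 215 ± 24.0 CPM (0.81 ± 0.09, adjusted p = 0.00257) and from 146 ± 6.47 to 189.6 ± 4.19 CPM (0.36 ± 0.07, adjusted p = 0.0165). Ckap2, a spindle protein gene, rose from 19.4 ± 0.851 to 23.4 ± 0.28 CPM (0.27 ± 0.08, adjusted p = 0.0499) and from 15.2 ± 1.32 to 25.7 ± 2.02 CPM (0.73 ± 0.11, adjusted p = 0.00642). Lpin1, a phosphatidate phosphatase, fell from 179.9 ± 37.6 to 82.7 ± 11.9 CPM (−1.13 ± 0.17, adjusted p = 0.0058) and from 172 ± 12.1 to 91.2 ± 6.47 CPM (−0.93 ± 0.09, adjusted p = 0.00262). Gadd45a, a growth arrest and DNA damage gene chosen here after its values were seen, fell after 5-FU once from 6.56 ± 0.971 to 3.21 ± 0.213 CPM (−1.04 ± 0.21, adjusted p = 0.0145) and was at 6.99 ± 1.19 and 3.97 ± 0.789 CPM after PBS and 5-FU 3 times (−0.84 ± 0.24, adjusted p = 0.0556). Abhd4, a lipid hydrolase, fell by 0.45 ± 0.08 (adjusted p = 0.0104) and 0.38 ± 0.10 (adjusted p = 0.0339) on the log2 scale.

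Genes of the cell cycle were higher at the same day at which Cdkn1a was higher. Of 18 such genes 12 rose and 0 fell after 5-FU once, with a median of 0.37, and 17 rose and 0 fell after 5-FU 3 times, with a median of 0.67. Among all genes, 11.5% and 9.84% rose in these comparisons. Their summed level was 2703 to 2971 CPM in 5FU-1 d6 against 1993 to 2079 CPM in PBS-1 d6, and 3044 to 3503 CPM in 5FU-3 d6 against 1745 to 2083 CPM in PBS-3 d6. From day 6 to day 21, 0 rose and 17 fell in both comparisons, beside the 13.7% and 10.8% of all genes that fell. The arrest gene Cdkn1a and the genes of division were thus higher in the same libraries, and whether they were higher in the same cells cannot be told from bulk RNA.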

How the data were processed

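RNA of 3000 to 3500 sorted HSCs per library was amplified with SMART-Seq v4, made into Nextera XT libraries and read as single-end 75-base reads. The submitters' processing notes name TopHat2 2.0.13 with the mm10 genome and Cufflinks 2.2.1 with Cuffdiff, and the deposited table holds whole-number counts per gene that the authors made without normalization. Which program counted the reads, and whether it used the strand, is not given in the sources used here. The study describes 3 independent experiments per cell type. In the table, the 6 columns of PBS-1 d6 and 5FU-1 d6 end in a number that is missing from the 15 other names, for a reason not stated. This ending divides the groups compared in 5FU-1 d21 against PBS-1 d6, in 5FU-1 d21 against 5FU-1 d6 and between the PBS groups. It also divides old HSCs from PBS-1 d6. Whatever it stands for cannot be told apart from the factor compared there.

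Members and gene lists were chosen with earlier results of these data known. Each of the 9 comparisons was fitted to the counts as deposited with edgeR 4.0.16 in R 4.3.3 (filterByExpr, TMM factors, quasi-likelihood F test, two-sided), with only the groups compared, and p-values were adjusted by Benjamini-Hochberg over all genes kept, with a threshold of 0.05. A log2 fold change is given ± SE. Levels are CPM with TMM factors over all 21 libraries; totals ran from 22184885 to 38649033 counts (median 26962256). The floors cover counting error only, whereas the SE of a log2 fold change and the SD of a level include variation between libraries. Scripts were tested on simulated counts. No 2 libraries of a group agreed within sampling noise. Replicate numbers were not used as pairs. Library values are given for Trp53, Mdm2 and Cdkn1a, for up to 14 members in all with these that passed at day 6 against PBS, largest log2 fold change first, and for up to 8 more that passed in another comparison, 20 members in total; Mdm4 was added after its values were seen. Alternatives were RLE size factors, library size alone, DESeq2 1.42.0, all genes with at least 1 count, a single fit of all 21 libraries, a replicate block, each library left out, and other PBS controls. Gene positions are GRCm38 (GENCODE vM21), and promoters are from RefSeq on GRCm38.p6, where 24 members had an entry and 8 did not.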

Additional observations from a re-analysis of the deposited data

How the results depend on the processing

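No member called in a comparison changed sign there under any alternative run. Counts of members called moved by over 1.5 times as follows. DESeq2 called 12 members in place of 6 after 5-FU 3 times at day 6, 14 in place of 7 between day 6 and day 21 after 5-FU 3 times, 2 in place of 0 for the difference between 1 and 3 administrations, 1 in place of 0 at day 21 after 1 and 1 in place of 0 after 3 administrations, 2 in place of 1 in old HSCs and 2 in place of 0 between the PBS groups. A single fit of all 21 libraries kept the count of 10 after 5-FU once at day 6, with Mdm4, Phlda3 and Rrm2b lost and Bax, Ddb2 and Trp53inp1 gained, and that of 1 in old HSCs, with Plk2 lost and Sesn1 gained. It called 10 after 5-FU 3 times at day 6 and 13 between day 6 and day 21 after 5-FU 3 times. For day 6 against PBS and day 21 against day 6, counts of all genes in DESeq2 and the single fit are not given. The numbers of members called there thus stand without the share of all genes. In old HSCs, 2 members were called with PBS-1 d6 as the control and 2 with all 6 PBS libraries. With 1 library left out, 3 to 7 members were called after 5-FU once at day 6, 1 to 5 after 5-FU 3 times, 3 to 11 and 3 to 6 between day 6 and day 21 after 1 and 3 administrations, and 0 to 1 in old HSCs. The cause of these shifts was not tested, and the fits with 1 library left out also had fewer libraries. With library size alone, the calls after 5-FU 3 times at day 6 were 0 higher and 6 lower in place of 1 and 5, with Aen lost and Bbc3 gained.

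Samples with the same replicate number did not deviate together (correlations −0.04 to 0.07), so the numbers were not taken as pairs. With the replicate number as a block, 5 members were called after 5-FU once at day 6, 3 after 5-FU 3 times and 0 in old HSCs. The 5 were Cdkn1a, Plk3, Sesn1, Mdm4 and Rrm2b, and the 3 were Plk2, Ddb2 and Trp53inp1. Between day 6 and day 21 after 5-FU once, the block lost the calls of Apaf1 and Phlda3. After 5-FU 3 times it lost that of Cdkn1a and gained Plk3 and Aen.

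Over all genes, the difference at day 6 gave 86 calls (715 in DESeq2), day 21 after 5-FU once 28 (725 in DESeq2, 257 in the single fit, 83 with library size alone, 3 with the block, 143 against all 6 PBS libraries, 5 against PBS-3 d6), day 21 after 5-FU 3 times 6 (592, 185, 15 and 0 in the first 4 of these, 3 with RLE factors, 131 against all 6 PBS libraries), old HSCs 128 (569 in DESeq2, 30 with the block, 242 against PBS-1 d6, 262 against all 6 PBS libraries), the PBS groups 2 (547 in DESeq2, 19 in the single fit, 0 with the block), and 5-FU 3 times at day 6 2310.0 (1509 with the block). Genes with few counts, above all Pmaip1, Dram1, Gdf15 and Eda2r, were limited by depth.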
